A study of Caenorhabditis elegans with 24 samples.

Results

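The question here was whether the response of whole Caenorhabditis elegans to fasting differed between worms with lowered TOR and worms with lowered Rheb. The measure was the change in log2 intensity from fed to fasted worms under TOR RNAi, less the same change under Rheb RNAi. It rests on the 14 TOR and Rheb RNAi arrays of the 24 in the series, and the members were taken from the plate and feeding state that the labels give. They were 3 fed and 3 fasted arrays under TOR RNAi, and 4 fed and 4 fasted arrays under Rheb RNAi. All worms were of the wild-type strain N2, kept at 20 °C and collected at day 4 of adulthood from plates carrying Cel-TOR RNAi or Cel-Rheb RNAi. Fed worms ate ad libitum and fasted worms went without food for 48 h, and each array took 5 µg of total RNA. The other 10 arrays, 5 fed and 5 fasted, came from N2 worms on control RNAi plates. They added to the estimate of the spread and are given as the reference response.

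TOR, encoded by let-363, is a protein kinase that matches growth to the supply of nutrients, and it works in a pair of complexes. TOR complex 1 holds Raptor (DAF-15 in worms) and promotes protein synthesis and growth, while TOR complex 2 holds Rictor (RICT-1). Rheb is a small GTPase that activates TOR complex 1 in its GTP-bound form. In worms the intestine is the main site of digestion, fat storage and of many antibacterial proteins. RNAi lowers a transcript and does not delete the gene.

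The 24 arrays measured 22625 probe sets, which were read as 17118 genes, and 12277 genes with a log2 intensity above 4 on at least 3 arrays were tested. Median intensities of the 14 arrays lay between 51.1 and 58, and all levels below are log2 intensities. The let-363 probe set of highest intensity read 7.72 to 7.87 on the fed TOR RNAi arrays and 9.12 to 9.52 on the fed Rheb RNAi arrays, without overlap. Its difference was -1.58 in fed and -1.64 in fasted worms. The exact two-sided permutation p was 0.0571 in both states, the smallest that 3 against 4 arrays allow. The dimmer rheb-1 probe set was lower on Rheb plates, by a difference of 2.38 in fed and 1.87 in fasted worms, again without overlap. The brighter rheb-1 probe set overlapped between the plates, with differences of 0.49 and 0.84 that were not called by limma. No probe set of either gene was called for a different fasting response.

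The fasting responses on the TOR and Rheb plates, which share no array, ran closely together. With limma and a Benjamini-Hochberg adjusted p under 0.05, 766 genes changed with fasting under TOR RNAi (6.24% of those tested), 133 upward and 633 downward. Under Rheb RNAi 1461 genes changed (11.9%), 397 upward and 1064 downward. Called on both plates were 590 genes, of which 527 fell on both, 63 rose on both and 0 moved in opposite directions. Over the 12277 genes the responses had a Pearson correlation of 0.83 and a Spearman correlation of 0.637. These describe genes within the same arrays, and genes are not independent replicates.

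Read across plates, 1404 of the 1461 genes called under Rheb RNAi (96.1%) had the same sign under TOR RNAi, and their summed response there was 77.4% of that under Rheb RNAi. Of the 766 genes called under TOR RNAi, 755 (98.6%) had the same sign under Rheb RNAi, with a summed response of 87.9%. Each share depends on the plate that chose the genes.

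Against this common response, 39 genes (0.318% of 12277) responded differently to fasting on the TOR and Rheb plates. The response was higher under TOR RNAi for 23 genes (0.187%) and lower for 16 (0.13%), and all 39 differences were at least 2-fold. Of the 39, 2 (srh-212 and T05C1.5) were above the log2 level of 4 in 1 of the 6 groups alone, so they were tested only through the group in which they were high, and their calls are no support for the count. The median difference over all genes was -0.01, and 533 genes had an unadjusted limma p under 0.05. That is a smaller share of the 12277 than the 0.05 that would be met if no gene differed. All 39 were among the 1637 genes called for fasting on at least 1 of the plates. Because the difference is built from the responses on both plates, this was close to fixed in advance and is no further result. The difference had a median 95% confidence half-width of 0.63 on the log2 scale. The whole interval lay within 1 log2 unit of 0 for 8297 genes, 67.6% of those tested, but for only 603 of the 1637 fasting genes, 36.8%. On simulated data with the same design, 22% of 2-fold and 90.5% of 4-fold differences were recovered over 12277 genes, with 3 and 15 false calls.

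The fed and fasted arrays of the same number within a plate deviated together. A fit with a block for each such pair called 178 genes (1.45%), 137 higher (1.12%) and 41 lower (0.334%), with 38 of the 39 among them. The gene not called with the block was cpt-5, at an adjusted p of 0.054. On the 14 TOR and Rheb RNAi arrays alone 28 genes were called, 24 of them among the 39. The 15 not called there were acd-1, clec-49, col-8, col-19, cpt-5, fcmt-1, fmo-3, irg-8, lys-7, R02E4.1, spp-14, spp-24, srh-212, ugt-66 and vglu-3. Without the fasted Rheb RNAi replicate 2 the count without a block was 25, and without the fasted Rheb RNAi replicate 4 it was 59.

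**Figure D1:**
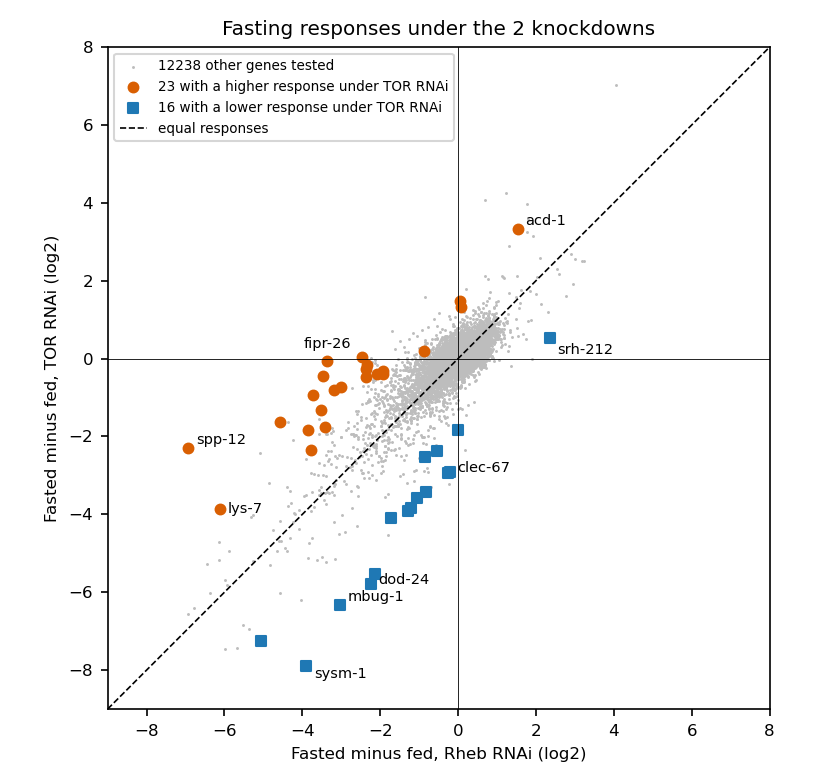
Each point is 1 of the 12277 genes tested, placed by its log2 change from fed to fasted worms under Rheb RNAi (x axis) and TOR RNAi (y axis). Orange circles mark the 23 genes with a higher response under TOR RNAi and blue squares the 16 with a lower one. Most of the marked genes lie in the lower left, where both responses are negative.

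Because the difference in response equals the gap between plates in fasted worms minus the gap in fed worms, each gene can be placed by both gaps. The gap is TOR minus Rheb RNAi in log2 intensity, and it was called for 693 genes in fed worms (5.64%) and 519 in fasted worms (4.23%). Without fed TOR RNAi replicate 3 the fed count was 414, and without fasted TOR RNAi replicate 2 the fasted count was 227, so the placing of a gene in fed or fasted worms alone rests on these thresholds. Of the 16 genes with a lower response, 14 had a called gap in fed worms alone, 1 in fasted worms alone and 1 in both. Of the 23 with a higher response, 17 had it in fed worms alone and 6 in fasted worms alone. Of all genes, 2.71% were called higher and 1.52% lower under TOR RNAi in fasted worms. The gaps use the arrays that chose these genes, so the counts describe the pattern and are no further test. The median gap of the 16 genes was 2.47 in fed and -0.13 in fasted worms, and that of the 23 genes was -1.9 and 0.3. Pair by pair, the 3 TOR responses and the 4 Rheb responses did not overlap for any of the 39 genes, against 12.1% of all genes. As the same responses chose the 39, this too describes them and is no further test. Of the 12277 genes, 1973 had no overlap between the TOR and Rheb RNAi arrays in fed worms, and 2162 had none in fasted worms. A lack of overlap between plates is thus common, and where given for single genes it describes their levels only.

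**Figure D2:**
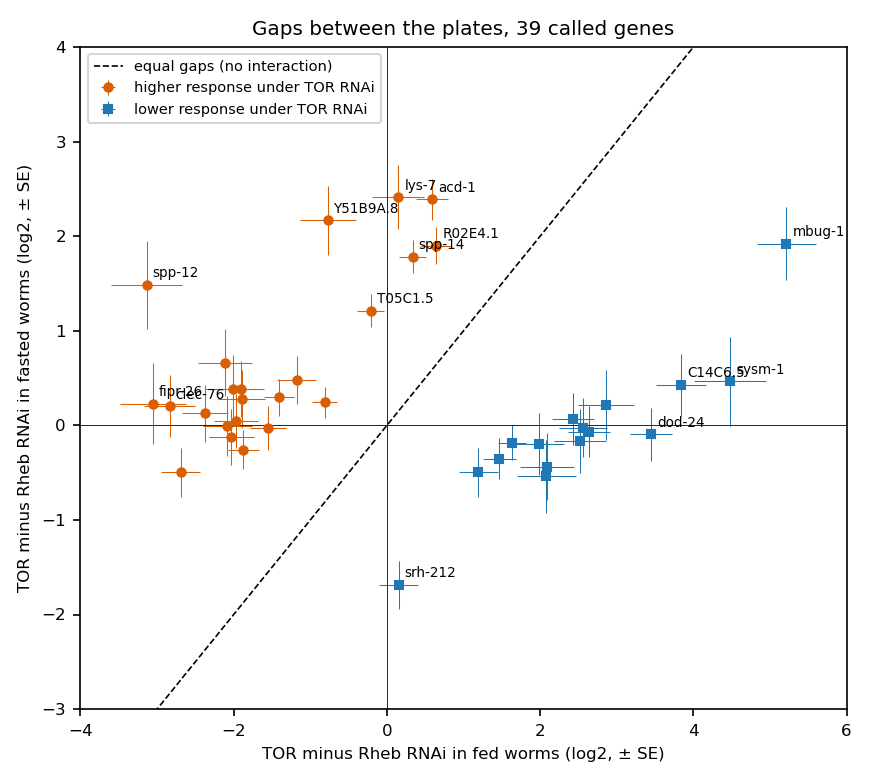
The 39 genes are placed by the log2 difference TOR minus Rheb RNAi in fed worms (x axis) and in fasted worms (y axis), with bars of 1 standard error from limma. Blue squares (lower response) spread along the right of the x axis and orange circles (higher response) along its left, while lys-7, acd-1, spp-14 and R02E4.1 sit high on the y axis, and srh-212 sits low.

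The 16 genes with a lower fasting response under TOR RNAi included the defence genes sysm-1, dod-24, irg-8, mbug-1 and F55G11.8 and the lectins clec-67 and clec-49. In fed worms 15 of the 16 were higher under TOR than under Rheb RNAi, by gaps of 1.19 to 5.21 (2.8% of all genes were called higher there). Of the 16, 15 fell with fasting under TOR RNAi (5.16% of all genes fell) and 11 under Rheb RNAi (8.67%). The fed gap and both responses are parts of the difference that chose these genes. Their counts describe the 16 and are no further test. In worms on control plates, 15 of the 16 fell with fasting (7.91%). Fed Rheb RNAi worms were below fed control worms for 14 of the 16 (13.9%) and fed TOR RNAi worms for 7 (13.4%). In these whole-worm samples, fewer cells of a type and less RNA per cell cannot be told apart.

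sysm-1 (T24B8.5), a gene used as a reporter of the p38 MAP kinase PMK-1 immune pathway, had the most negative difference. In order of replicate number, it read 13.76, 12.74 and 13.17 on fed TOR RNAi arrays and 5.27, 5.44 and 5.23 after fasting. On Rheb plates it read 8.51, 7.02, 10.11 and 9.35 in fed worms and 4.91, 4.77, 4.47 and 5.25 in fasted worms. The fed arrays of the plates did not overlap, and fed control arrays (13.22 to 14.1) lay close to fed TOR RNAi arrays. The fall was -7.91 under TOR RNAi and -3.9 under Rheb RNAi, a difference of -4.01 ± 0.67 (SE; limma adjusted p = 0.0049).

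dod-24 (C32H11.12) is named as a gene downstream of the transcription factor DAF-16, and its probe set can match several transcripts. The gene had the smallest p of all genes. It read 10.64, 11.40 and 11.31 in fed and 5.39, 5.06 and 5.54 in fasted TOR RNAi worms. Under Rheb RNAi it read 7.3, 7.88, 7.66 and 7.83 in fed and 4.95, 6.15, 5.53 and 5.07 in fasted worms. All fed TOR RNAi arrays were above all fed Rheb RNAi arrays, and the fasted arrays of both plates overlapped. The difference in response was -3.54 ± 0.39 (SE; limma adjusted p = 8.5e-05). Control worms went from 12.43 to 13.4 when fed to 9.64 to 10.5 when fasted, so that fasted control worms were above fasted worms of both knockdowns.

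Of the 39 genes, mbug-1 (F55G11.4) was the single one with a called gap in both states. Its fed levels were 12.29, 12.29 and 12.69 under TOR RNAi and 6.64, 6.86, 7.18 and 8.16 under Rheb RNAi. After fasting it read 6.12, 5.61 and 6.59 under TOR RNAi and 4.04, 4.09, 3.88 and 4.72 under Rheb RNAi. The plates did not overlap in either state, and the gap was 5.21 ± 0.39 in fed and 1.92 ± 0.39 in fasted worms (SE). The difference in response was -3.29 ± 0.55 (limma adjusted p = 0.0049). F55G11.8, on the list of immune effectors and 3 genes away in the WBcel235 annotation, read 5.94, 5.85 and 6.6 on fed TOR RNAi arrays and 2.77 to 4.19 on fed Rheb RNAi arrays. Its difference was -2.58 ± 0.44 (adjusted p = 0.0057) and -2.05 when values below 4 were set to 4.

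C14C6.5 moved in the same way. It read 11.29, 10.63 and 11.43 in fed TOR RNAi worms, 7.02, 6.91, 7.29 and 7.89 in fed Rheb RNAi worms, and 4.87 to 5.99 on all 7 fasted arrays of both plates. The difference was -3.41 ± 0.46 (limma adjusted p = 0.0012), and a further probe set of the gene gave -4.27. irg-8 (ZK6.11), an infection response gene, had fed levels of 9.04 to 10.54 under TOR RNAi and 7.07 to 8.46 under Rheb RNAi, with a difference of -2.62 ± 0.54 (adjusted p = 0.032). Leaving out 1 of the 24 arrays at a time ended its call in 9 cases. Among lectins, which bind carbohydrates and include many infection-induced genes, clec-67 and clec-49 had lower responses.

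clec-67 (F56D6.2) was read at 7.43, 6.68 and 6.68 in fed TOR RNAi worms. It lay between 3.84 and 4.58 on all 8 Rheb RNAi arrays, fed and fasted, and between 3.91 and 4.1 in fasted TOR RNAi worms. On Rheb plates it thus lay near the filter level of 4 in both states, where a fall can hardly be read. The response there was -0.21 and was not called, while fed control worms read 8.61 to 10.19. The difference was -2.71 ± 0.38 (limma adjusted p = 0.0012). For clec-49 the difference was -2.53 ± 0.5 (adjusted p = 0.022), and its call was lost in 7 of the 24 cases.

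**Figure D3:**
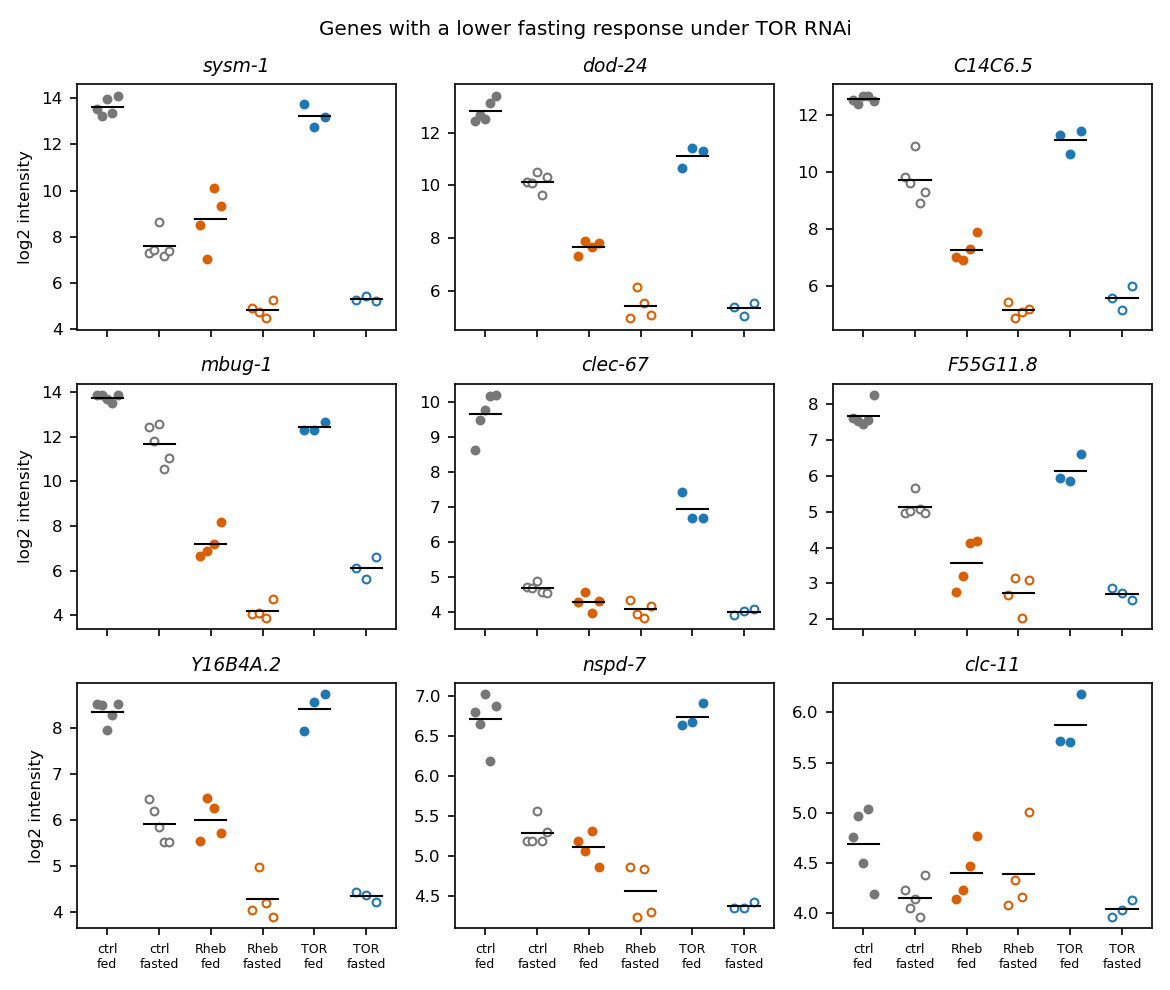
Log2 intensity on every array for 9 genes with a lower fasting response under TOR RNAi, for control (grey), Rheb RNAi (orange) and TOR RNAi (blue) worms. Filled points are fed and open points fasted worms, and bars are group means. In all 9 panels the filled blue points lie above the filled orange points, and in mbug-1 the open blue points also lie above the open orange points.

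The remaining genes of this direction were E04D5.4, F01D5.1, F01D5.3, Y16B4A.2, pho-1, clc-11, nspd-7 and srh-212. E04D5.4 read 5.79 to 6.74 in fed TOR RNAi worms and 2.52 to 3.85 on the 11 other TOR and Rheb RNAi arrays, a difference of -2.69 ± 0.48 (limma adjusted p = 0.0086). Those other arrays all lay under the filter level of 4, where a fall can hardly be read. With values below 4 set to 4 the gene's difference was -2.18. F01D5.1 and F01D5.3, which lie 2 places apart in the annotation, had differences of -2.65 ± 0.52 and -2.18 ± 0.47 and lost their calls in 5 and 17 of the 24 cases with 1 array left out. F01D5.3 fell steeply on both plates, from 9.8 to 9.98 down to 2.62 to 2.77 under TOR RNAi and from 7.58 to 8.34 down to 2.55 to 3.18 under Rheb RNAi. Its call was lost when values below 4 were set to 4 (adjusted p = 0.077).

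Y16B4A.2 read 7.95, 8.57 and 8.74 in fed TOR RNAi worms, within or near the fed control range of 7.96 to 8.54, and 5.55 to 6.47 in fed Rheb RNAi worms. pho-1, an intestinal acid phosphatase, had a difference of -1.69 ± 0.36 (limma adjusted p = 0.042), and a further probe set gave -1.26 (adjusted p = 0.79). Its call was lost in 15 of the 24 cases with 1 array left out, and when values below 4 were set to 4 (-1.4, adjusted p = 0.128). nspd-7, of a nematode-specific peptide family, had fed TOR RNAi levels of 6.64 to 6.91 that resembled fed control levels of 6.19 to 7.02 and a difference of -1.82 ± 0.26. clc-11, a claudin-like gene of the family that forms cell junction proteins in other animals, read 5.71 to 6.18 in fed TOR RNAi worms. It was the one gene of the 16 for which fed TOR RNAi worms were called above fed control worms (19.9% of all genes).

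srh-212, of a chemoreceptor family, was the exception in its pattern. It read 2.31 to 2.95 in fed worms of both plates and rose to 5.81, 4.31, 5.21 and 4.45 in fasted Rheb RNAi worms. Fasted TOR RNAi worms read 3.48, 3.4 and 2.9, below every fasted Rheb RNAi array. As all control arrays were also under 4, the gene passed the filter only through the group in which it was high. The difference was -1.84 ± 0.36 (limma adjusted p = 0.018), but -0.94 with an adjusted p of 0.38 when values below 4 were set to 4, and the call was lost in 3 of the 24 cases with 1 array left out.

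Of the 23 genes with a higher response, 20 fell with fasting under Rheb RNAi (8.67% of all genes) and 7 under TOR RNAi (5.16%), while 3 rose under TOR RNAi (1.08%) and 1 rose under Rheb RNAi (3.23%). Both responses and the fed gap are parts of the difference that chose these genes, so their counts are no further test. The 17 with a called gap in fed worms were all lower in fed TOR RNAi than in fed Rheb RNAi worms (2.84% of all genes). They held the saposins spp-12 and spp-24, the collagens col-8 and col-19, clec-76, fipr-26, ugt-66, fmo-3, cpt-5, grd-3, vglu-3 and fcmt-1. The others were F13H8.3, F42A8.1, F46F2.3, T19B10.2 and Y87G2A.2.

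spp-12 (T22G5.7) encodes a saposin-like protein, of a lipid-binding family that includes antibacterial pore formers. It had the most positive difference, 4.62 ± 0.65 (SE; limma adjusted p = 0.0012). On fed Rheb RNAi arrays it read 12.74, 13.32, 13.24 and 13.88, and after fasting 6.75, 5.78, 6.07 and 6.89. On TOR RNAi arrays it read 9.78, 10.76 and 9.93 when fed and 7.52, 7.92 and 8.12 when fasted. The plates did not overlap in either state, and the order turned: Rheb RNAi was higher in fed worms and TOR RNAi in fasted worms, though the fasted gap of 1.48 ± 0.46 was not called. Fed control worms, at 6.9 to 9.04, were below fed worms of both knockdowns.

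clec-76, a further C-type lectin, read 7.75, 7.93, 8.23 and 8.21 in fed Rheb RNAi worms and 4.64, 5.03 and 5.9 in fed TOR RNAi worms. All 7 fasted arrays of both plates lay between 3.75 and 5.04. In control worms it rose with fasting, by 1.03. The difference in response was 3.04 ± 0.47 (limma adjusted p = 0.0027). fipr-26 (F53B6.8), whose name stands for fungus-induced protein related, read 6.93, 7.13, 8.06 and 8.21 in fed Rheb RNAi worms, and 3.92 to 4.72 on the other 10 arrays of both plates. Its difference was 3.28 ± 0.61 (adjusted p = 0.01), and fed control worms read 9.05 to 10. Fed TOR RNAi worms, at 4.38 to 4.72, were near the filter level of 4, where a fall can hardly be read.

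ugt-66, a UDP-glucuronosyltransferase of the family that conjugates small molecules, was high in fed Rheb RNAi worms, at 9.11, 8.78, 8.92 and 8.56. Fed TOR RNAi worms read 7.25, 5.67 and 7.28, and all fasted arrays of both plates 4.55 to 6.6. The difference was 2.78 ± 0.5 (limma adjusted p = 0.0087, or 0.0582 on the 14 arrays alone). fmo-3, a flavin-containing monooxygenase, had 2.17 ± 0.44 (adjusted p = 0.024). Its call was lost in 7 of the 24 cases, among them fed Rheb RNAi replicate 4, which at 8.94 stood above the other 3 at 8.15 to 8.23.

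F13H8.3 had a fasting response of 0.04 under TOR RNAi, which was not called, and fed TOR RNAi worms read 6.56, 7.05 and 6.94. Fed Rheb RNAi worms read 9.42, 8.55, 9.17 and 9.75 and fasted Rheb RNAi worms 6.14 to 7.69. The difference was 2.5 ± 0.43 (limma adjusted p = 0.0057). F42A8.1 read 9.57 to 10.43 in fed Rheb RNAi and 7.31 to 7.5 in fed TOR RNAi worms, a difference of 2.2 ± 0.36, and it fell on both plates. T19B10.2 read 11.91 to 12.49 and 10.18 to 10.69 in the same order, a difference of 2.28 ± 0.42 that a further probe set gave as 2.27.

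The cuticle collagens col-19, an adult-stage collagen, and col-8 differed by 1.91 ± 0.42 and 2.39 ± 0.51 (limma adjusted p = 0.049 and 0.04). For col-8, fed Rheb RNAi worms read 10.52 to 11.18 and fed TOR RNAi worms 8.13 to 9.42, without overlap, and both overlapped after fasting. Leaving out 1 array ended the call in 18 of the 24 cases for col-19 and 11 for col-8, and col-19 was also not called with values below 4 set to 4. grd-3, of the hedgehog-related groundhog family, and vglu-3, of a glutamate transporter family, had differences of 2.02 ± 0.41 and 2.08 ± 0.45. The call was lost in 8 cases for grd-3 and 19 for vglu-3. Fed TOR RNAi worms read 4.08 to 4.87 for vglu-3, near the filter level of 4, where a fall can hardly be read. cpt-5, related to the carnitine palmitoyltransferases that carry fatty acids into mitochondria, had 1.66 ± 0.35, and its call was lost in 14.

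Another 6 genes had the gap in fasted worms alone, all higher under TOR RNAi. lys-7 (C02A12.4), a lysozyme that contributes to resistance to bacteria and is raised by DAF-16, read 14.78 to 14.98 in fed TOR RNAi and 14.62 to 14.88 in fed Rheb RNAi worms. After fasting it read 11.36, 10.28 and 11.42 under TOR RNAi and 7.19, 8.72, 9.39 and 9.13 under Rheb RNAi. The fasted arrays did not overlap, whereas the fed ones did, and fasted control worms were at 13.94 to 14.57. The fall was -3.86 under TOR RNAi and -6.13 under Rheb RNAi, a difference of 2.27 ± 0.48 (limma adjusted p = 0.042). Its call was lost in 17 of the 24 cases with 1 array left out.

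spp-14 (K09F5.3), another saposin, read 11.55, 11.5 and 11.58 in fed TOR RNAi worms and 9.01, 9.06 and 9.52 after fasting. Under Rheb RNAi it read 11.14, 10.92, 11.49 and 11.28 in fed and 7.27, 7.31, 7.9 and 7.19 in fasted worms. The fasted plates were apart by 1.78 ± 0.18 (SE), and the difference in response was 1.45 ± 0.25 (limma adjusted p = 0.0059, or 0.0503 on the 14 TOR and Rheb RNAi arrays alone). In control worms its change with fasting was -0.35, which was not called.

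Y51B9A.8 showed the same order, with 5.59, 5.67 and 6.46 in fasted TOR RNAi and 3.07, 3.44, 4.41 and 4.03 in fasted Rheb RNAi worms. Its difference was 2.94 ± 0.52 (limma adjusted p = 0.0067), or 2.57 with values below 4 set to 4. acd-1 (C24G7.2), a subunit of the degenerin and epithelial sodium channel family, rose on both plates. It reached 7.25, 6.97 and 7.23 in fasted TOR RNAi worms and 4.38, 4.79, 4.66 and 5.23 in fasted Rheb RNAi worms, from fed levels of 2.96 to 4.33. The difference was 1.8 ± 0.3 (limma adjusted p = 0.0054, or 0.0559 on the 14 arrays alone), and 2.28 with values below 4 set to 4.

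T05C1.5 and R02E4.1 rose under TOR RNAi, by 1.48 and 1.33, with responses of 0.06 and 0.07 under Rheb RNAi that were not called. T05C1.5 was under 4 on every array, controls included, but the 3 fasted TOR RNAi arrays (4.3, 4.83 and 4.66), so it passed the filter only through the group in which it was high. Its difference of 1.43 ± 0.25 was 0.6 with values below 4 set to 4 (limma adjusted p = 0.048). R02E4.1 lost its call in 21 of the 24 cases with 1 array left out. The remaining genes of the 23, F46F2.3, fcmt-1, spp-24 and Y87G2A.2, had differences of 1.62, 1.53, 1.06 and 1.71. The calls of fcmt-1 and spp-24 were lost in 16 and 17 of them. In fed TOR RNAi worms fcmt-1 read 4.18 to 4.75, near the filter level of 4.

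**Figure D4:**
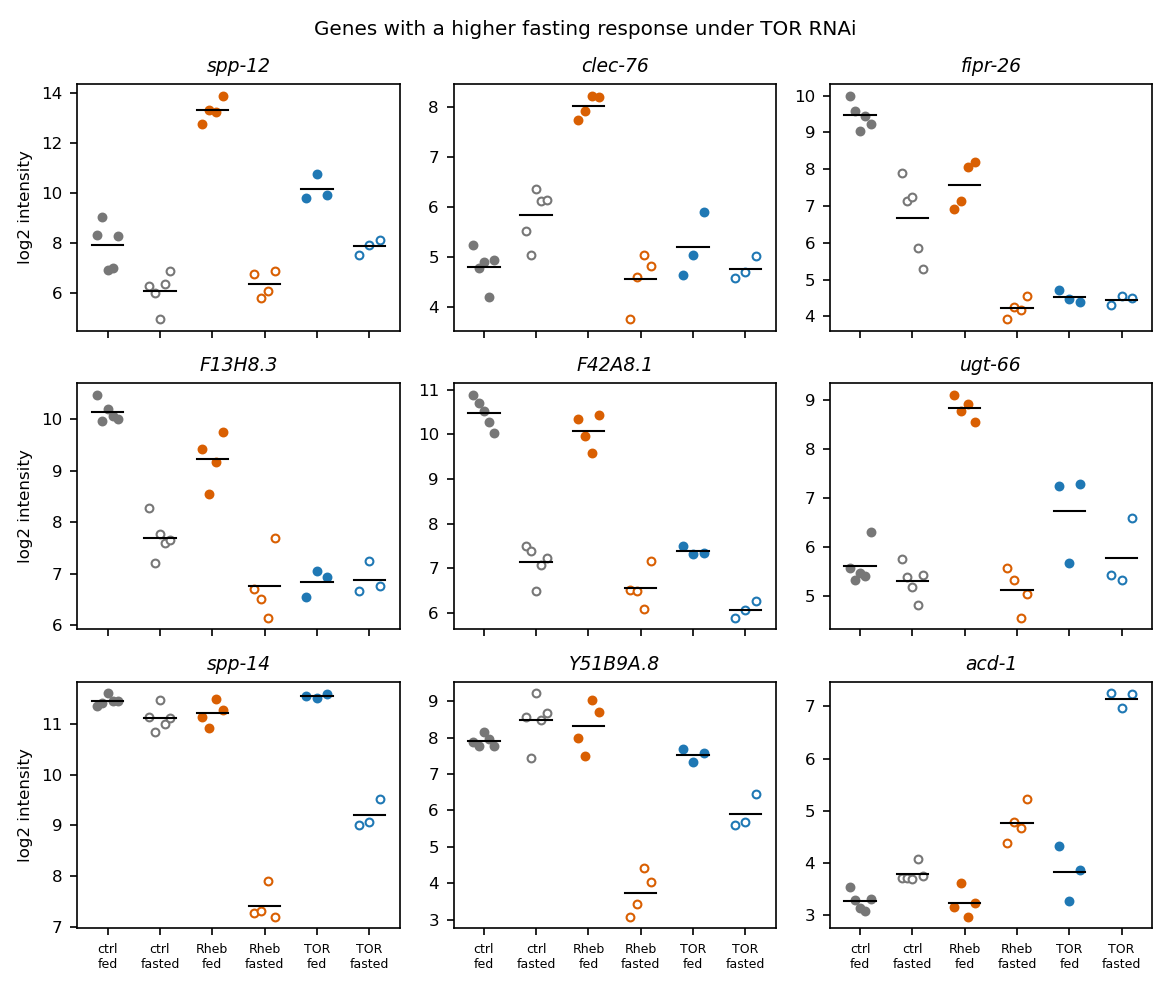
Log2 intensity on every array for 9 genes with a higher fasting response under TOR RNAi, with colours, symbols and bars as in the plot of genes with a lower one. In the upper 6 panels the filled orange points (fed Rheb RNAi) lie above the filled blue points (fed TOR RNAi). In the lower 3 panels the open blue points (fasted TOR RNAi) lie above the open orange points.

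The gene families around these genes were read from 45 lists, and their counts stand against the 39 calls of all 12277 genes. Spike control probe sets on the arrays, which read no worm gene, all had differences above 0, from 0.0755 to 0.381. List medians of this size are therefore given as description only. Among saposin-like proteins, 3 of 15 tested were called higher and 0 lower, with a median difference of 0.14 (4 higher with the within-plate block, the fourth being spp-1 at 0.99). Among lysozymes 1 of 13, lys-7, was called higher (2 with the block, with lys-4 at 0.96). C-type lectins had 1 of 99 higher and 2 lower (2 and 5 with the block), and their median of -0.04 was close to that of all genes. Immune effectors had 1 of 44 higher and 5 lower (3 and 5 with the block), and these members differed in direction: sysm-1, dod-24, mbug-1, irg-8 and F55G11.8 were lower and fipr-26 was higher.

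Cuticle collagens, which form the body wall covering, leaned upward. Called higher were 2, and 11 with the block, and 0 were lower in either fit. The difference was above 0 for 86 of those tested and below 0 for 18, and its median was 0.26. In fed worms 11 collagens were lower and 0 higher under TOR than Rheb RNAi (2.84% and 2.8% of all genes). In fasted worms 0 were higher and 0 lower. The summed collagen intensity was 22690 to 58210 in fed Rheb RNAi worms and 9616 to 23510 in fed TOR RNAi worms, and the ranges overlapped. They also overlapped after fasting, at 10930 to 17370 and 8690 to 23750. With the block, col-101, col-106 and col-181 had differences of 1.74, 2.4 and 2.05 (limma adjusted p = 0.0025, 0.0011 and 0.0026 with the block, and 0.089, 0.13 and 0.12 without).

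Hedgehog-related genes had 1 of 55 called higher (4 with the block: grd-3, grd-5, grl-4 and ptr-14, all positive). Their gap in fed worms was called lower under TOR RNAi for 9 members and higher for 1 (2.84% and 2.8% of all genes). UDP-glucuronosyltransferases had 1 of 57 called higher (4 with the block), and 46 of the 57 differences were above 0, with a median of 0.34. Cytochrome P450 genes had 0 of 55 called (3 higher with the block, at 1.11 to 2.03: cyp-13A10, cyp-25A2 and cyp-34A9).

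Genes of fat metabolism were read from 4 lists, beside calls for 0.318% of all genes without the block and 1.45% with it. Of 20 genes for fatty acid synthesis, desaturation and elongation, 0 were called without the block and 3 were higher with it: fat-2 (0.81), fat-3 (1.15) and elo-6 (1.38), enzymes that desaturate and elongate long-chain fatty acids. The difference was above 0 for 19 of the 20, with a median of 0.33, and 10 members fell with fasting under Rheb RNAi against 3 under TOR RNAi (8.67% and 5.16% of all genes). Of 40 genes of fatty acid beta-oxidation, cpt-5 was the 1 called, and 0 were called with the block. Of 17 acyl-CoA synthetases 0 were called in either fit. Lipases and fatty acid binding proteins had 0 of 24 called, and with the block far-3 was higher (2.17) and lipl-3, a lysosomal lipase, lower (-1.81). Lysosomal and digestive peptidases, of which 22 of 29 fell with fasting on each plate, had 0 called and a median of -0.03.

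Lists of the growth machinery, which TOR complex 1 is known to control, held 0 called genes. With 0.318% of all genes called, 0 in lists of this size is near the background. Of 75 cytosolic ribosomal proteins 0 were called, the median was 0.04, and for 73 the 95% interval lay within 1 log2 unit of 0. All 38 translation factors had their interval within that range. The mitochondrial ribosomal proteins had all 57 there, and the proteasome 31 of 33. Of 33 ribosome biogenesis genes 28 differences were below 0, with a median of -0.18, and 27 intervals lay within that range. Of 31 aminoacyl-tRNA synthetases 24 were below 0, with a median of -0.14, and 28 intervals lay within it. Of 29 genes of the TOR, Rheb and energy-sensing pathway 0 were called, as were 0 of 27 autophagy genes, 0 of 18 vacuolar ATPase subunits and 0 of 30 genes of insulin signalling. Of the genes higher with active DAF-16 1 of 18, lys-7, was called, and of those lower with it 1 of 11, dod-24.

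**Figure D5:**
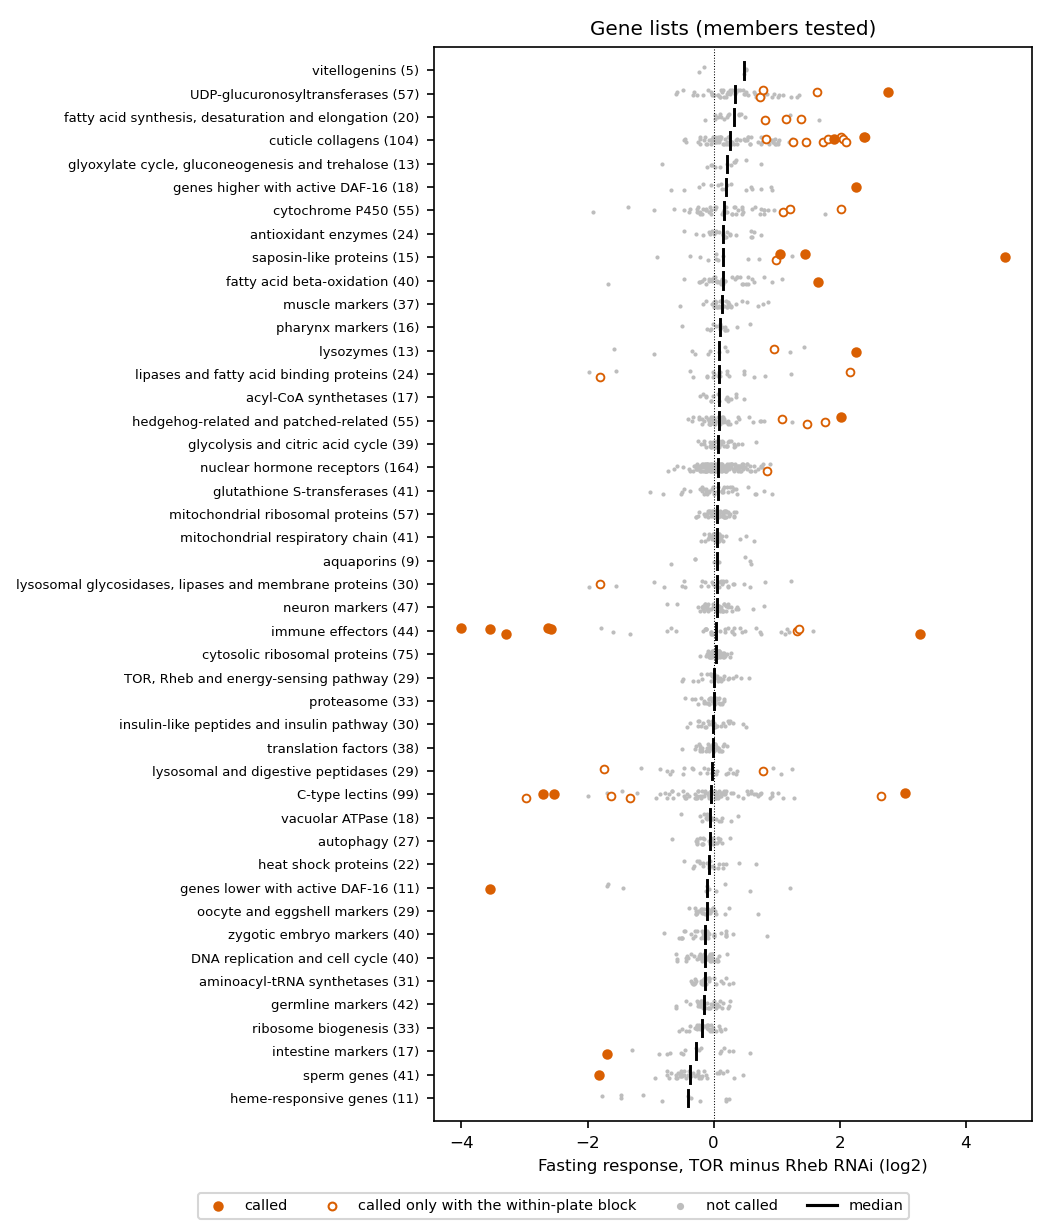
Difference in fasting response, TOR minus Rheb RNAi on the log2 scale (x axis), for each tested member of the 45 gene lists (y axis, number tested in brackets), sorted by the list median (black line). Filled orange points are called genes, open orange points were called only with the within-plate block, and grey points were not called. Called saposins, collagens and glucuronosyltransferases lie to the right, and called lectins and immune effectors on both sides.

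Markers of the tissues were also compared, since whole worms hold all of them. The intestine list had 1 of 17 called, pho-1, and its summed intensity was 4103 to 6670 in fed Rheb RNAi and 7147 to 8526 in fed TOR RNAi worms, without overlap. Of its members 2 were called higher and 0 lower in fed TOR than in fed Rheb RNAi worms (2.8% and 2.84% of all genes). After fasting the sum was 2578 to 3657 and 3045 to 4097. Muscle markers had 0 of 37 called, but 33 differences were above 0 with a median of 0.13, and 9 members were lower in fed TOR than in fed Rheb RNAi worms (2.84% of all genes). Their summed intensity was 101300 to 133100 in fed Rheb RNAi, 64650 to 93760 in fed TOR RNAi, 62440 to 86140 in fasted Rheb RNAi and 59830 to 71740 in fasted TOR RNAi worms. In fed worms the intestine sum was higher under TOR RNAi, as were 15 of the 16 genes with a lower response, srh-212 being the exception. The muscle sum was lower, as were 11 of the collagens tested. The part of these sums in those results was not tested.

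Pharynx markers had 0 of 16 called, and their summed intensity was 4240 to 9288 in fed Rheb RNAi and 8299 to 11710 in fed TOR RNAi worms. Neuron markers had 0 of 47 called, germline markers 0 of 42, oocyte and eggshell markers 0 of 29, zygotic embryo markers 0 of 40 and vitellogenins 0 of 5. As 0.318% of all genes were called, 0 in lists of this size, muscle and pharynx included, is near the background. Oocyte markers summed to 199000 to 231100 in fed Rheb RNAi and 143400 to 181100 in fed TOR RNAi worms, and to 202100 to 224400 and 147400 to 177000 after fasting, without overlap in either state. Of 41 sperm genes 1 was called, nspd-7, and 34 differences were below 0 with a median of -0.37. Of RNA quality, the 3′ to middle signal of actin and Gapdh, as a log2 difference, lay between 0.55 and 0.97 on the Rheb RNAi arrays and 0.65 and 0.95 on the TOR RNAi arrays.

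Of 8 further genes, chosen from earlier results of these data as anchors of the fasting response, 0 passed the test for a difference between the plates. acs-2, an acyl-CoA synthetase of fatty acid oxidation, read 7.51, 7.05, 6.38 and 7.08 in fed and 9.77, 9.73, 9.16 and 10.96 in fasted Rheb RNAi worms. Under TOR RNAi it read 8.17, 9.19 and 10.84 in fed and 11.83, 11.87 and 12.56 in fasted worms. It was higher under TOR RNAi in both states, with gaps of 2.39 and 2.18, and the rises of 2.9 under Rheb and 2.69 under TOR RNAi differed by -0.21 (95% interval -1.76 to 1.34). In control worms the rise was 6.78. For hsp-12.6, a small heat shock protein, the difference was 0.07 (-1.01 to 1.15), and for ins-7, an insulin-like peptide that fell on both plates, 0.17 (-0.79 to 1.14).

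cpr-1, a cathepsin B-like protease, fell by 6.94 under Rheb RNAi and by 6.56 under TOR RNAi, a difference of 0.37 (95% interval -0.5 to 1.24). fat-7, a stearoyl-CoA desaturase, read 7.64, 8.46, 9.35 and 9.82 in fed and 3.77, 3.71, 3.79 and 4.53 in fasted Rheb RNAi worms. Under TOR RNAi it read 7.18, 8.1 and 6.51 in fed and 3.88, 4.02 and 4.3 in fasted worms, a difference of 1.67 (0.19 to 3.15) that was not called (limma adjusted p = 0.99). T22F3.11 rose to 7.38, 9.01, 6.08 and 10.16 in fasted Rheb RNAi and to 10.97, 11.58 and 11.84 in fasted TOR RNAi worms. The fasted plates did not overlap, yet the difference of 2.97 (0.72 to 5.21) was not called (adjusted p = 0.71), with a wide spread among the Rheb RNAi arrays. adh-1, an alcohol dehydrogenase, had -0.72 (-2.25 to 0.81) and sod-3, a mitochondrial superoxide dismutase and DAF-16 target, 0.6 (0.0021 to 1.2), neither called.

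Some gaps between the plates were of like size in both feeding states, and the difference in response was not called. F54F7.2 read 9.39 to 10.02 in fed and 9.32 to 10.05 in fasted Rheb RNAi worms, against 5.71 to 5.95 and 5.92 to 6.59 under TOR RNAi, a difference in response of 0.38 (95% interval -0.31 to 1.06). tbh-1, which makes octopamine, was lower under TOR RNAi by a gap of -3.55 in fed and -2.93 in fasted worms, and C39D10.7 by -3.3 and -3.34. lys-10, a lysozyme, was higher under TOR RNAi by 3.55 in fed and 3.25 in fasted worms, and it fell by 4.39 under TOR RNAi and by 4.09 under Rheb RNAi. Its difference in response was -0.3, or -1.4 with values below 4 set to 4, and was not called in either.

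Other gaps opened in fasted worms without a call. F10C2.7 read 2.47 to 3.19 in fed and 4.18, 2.91, 2.72 and 5.88 in fasted Rheb RNAi worms. Under TOR RNAi it read 2.97, 3.34 and 3.59 in fed and 6.97, 7.65 and 8.02 in fasted worms, above every fasted Rheb RNAi array. The difference was 3.01 ± 0.73 (limma adjusted p = 0.1), and it was called with the within-plate block (adjusted p = 0.013) and with values below 4 set to 4. pho-11, a further acid phosphatase, read 9.62, 10.45 and 10.36 in fasted TOR RNAi and 3.54, 5.22, 6.42 and 7.26 in fasted Rheb RNAi worms, a difference of 2.76 ± 0.92 (adjusted p = 0.51, or 0.011 with the block).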

How the data were processed

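Whole-worm RNA was hybridised to Affymetrix C. elegans Genome Arrays. The deposited values are probe set intensities on a linear scale, made by the authors with GCRMA per the submitters' processing notes (version not given in the sources used here), and GeneSpring GX 7.3.1 is named in the series' design text. GCRMA makes the arrays' distributions alike, which hides any shift that all transcripts share. Here the deposited intensities were turned into log2 values. Each gene was read by its probe set of highest mean (20766 probe sets name 1 gene, 887 several, 895 none, and 77 are array controls). Genes above a log2 of 4 on at least 3 arrays were tested with limma 3.58.1 in R 4.3.3, as 6 group means over all 24 arrays, with Benjamini-Hochberg adjustment over 12277 genes and a threshold of 0.05. Targeted genes also had exact permutation tests. P-values measure the spread between samples that the labels call biological replicates.

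The comparison, gene lists and rule for naming genes were chosen with earlier results of these data known. Named were the targets and 8 anchor genes, up to 12 called genes of largest difference each way, up to 4 members of each list with a call, and the 5 largest non-overlapping gaps each way. The other called genes were named after their values were seen. So were some list members named with the within-plate block. Deviations from group means correlated between fed and fasted arrays of the same number (0.44 to 0.734 for Rheb, 0.503 to 0.568 for TOR and 0.508 to 0.602 for control plates). Between Rheb and TOR arrays of the same number they ran from -0.378 to 0.283, and between control and Rheb arrays from 0.176 to 0.663. Rheb and TOR arrays of different number could deviate together or apart. Fed Rheb replicate 4 correlated at 0.559 with fasted TOR replicate 2 and at -0.395 with fed TOR replicate 1. An equal number thus did not mark shared deviations between these plates. The pairing used for the TOR and Rheb comparison was therefore taken within plates, from the data together with the labels' numbers, and a block over all plates was a further alternative. No 2 arrays were copies (highest correlation 0.9899). Alternatives were 3 variance models, the 14 arrays alone, 2 scalings, filters, probe set choices, blocks and leaving out arrays. Of the 39 genes called, 13 rest on probe sets that can match several transcripts (suffix _s_at or _x_at). They include dod-24, C14C6.5, F01D5.1, clec-49, Y16B4A.2, pho-1, fipr-26, col-8, lys-7 and F42A8.1. Symbols came from the platform table; updating through 20701 Entrez numbers changed 0, and 65 could not be looked up. No column was left unused. The stretches targeted by RNAi were not analysed here.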

Additional observations from a re-analysis of the deposited data

Results flagged for a closer look

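The difference between the fasting responses of TOR and Rheb RNAi worms was itself tested, and 23 genes were higher and 16 lower under TOR RNAi.

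Among 172 groups of 4 Rheb RNAi arrays over 86 named genes, 6 held an array far from the others by Dixon's criterion, and chance alone gives about 1 in 20. On fasted Rheb RNAi replicate 4, fat-7 read 4.53 against 3.71 to 3.79 on the other 3 arrays and ugt-51 read 5.81 against 6.42 to 6.48. On fed Rheb RNAi replicate 4, fmo-3 read 8.94 against 8.15 to 8.23, ugt-51 read 7.25 against 7.55 to 7.61 and F10C2.7 read 3.19 against 2.47 to 2.54. On fasted Rheb RNAi replicate 2, clec-174 read 8.13 against 6.6 to 6.73.

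Among probe sets outside the gene table, 4 were called for the same difference. The probe set shared by clec-69 and clec-67 was at -2.48, one with no gene listed at -3.24, the one shared by K02A2.1 and D1022.3 at 2.4, and one shared by the histone genes his-10, his-26 and his-14 at 1.84.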

How the results depend on the processing

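All 39 differences kept their sign in every setting that tested the gene, 23 were called without each of the 24 arrays, and 17 under every alternative. Leaving out 1 array at a time gave 25 (without fasted Rheb RNAi replicate 2) to 59 (without fasted Rheb RNAi replicate 4) genes in all, 13 to 38 higher and 11 to 21 lower. It gave 583 to 794 genes for fasting under TOR RNAi, 1015 to 1957 under Rheb RNAi, 414 to 725 for the fed gap and 227 to 772 for the fasted gap. The replicate block within plates gave 178, with 137 higher and 41 lower, 2074 genes for fasting under TOR RNAi and 4207 under Rheb RNAi, and it cannot give the gaps. The replicate block over all plates gave 106, with 73 higher and 33 lower, 1298 and 2960 for the responses, and 2933 and 3281 for the fed and fasted gaps. This block joins TOR arrays to Rheb and control arrays of the same number. Their deviations correlated from -0.378 to 0.283 and from -0.329 to 0.283, so for TOR plates the block rests on a pairing not borne out. Array weights gave 82, with 57 higher and 25 lower, and 1138 and 1050 for the gaps. Without probe sets ending in _s_at or _x_at the count was 24, with 14 higher and 10 lower. The count of higher genes was 13 on the 14 arrays alone, 15 without a filter, and 15 without fed Rheb RNAi replicate 3 and fasted TOR RNAi replicate 2, where the fasted gap held 220. The causes were not tested.

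Beside the block, cpt-5 lost its call on the 14 arrays alone, without a filter and without that pair of arrays. Of the 16 genes whose call needed single arrays, srh-212 lost it without fasted Rheb replicate 3, fed TOR replicate 2 or fasted TOR replicate 3 (-1.79 to -1.66). F01D5.1 lost it without fed Rheb 1, fasted Rheb 3, fed TOR 1, fasted TOR 1 or fasted TOR 2 (-2.56 to -2.28). clec-49 lost it without fed Rheb 1, fasted Rheb 2 or 3, fed TOR 2 or 3, or fasted TOR 1 or 2 (-2.51 to -2.31). fmo-3 lost it without fed Rheb 4, fasted Rheb 2 or 3, fed TOR 1 or 2, or fasted TOR 2 or 3 (1.96 to 2.17). grd-3 lost it without fed Rheb 3 or 4, fasted Rheb 2 or 3, fed TOR 2 or 3, or fasted TOR 1 or 3 (1.87 to 2.08). irg-8 lost it without fed Rheb 1, 2 or 4, fasted Rheb 1 or 2, fed TOR 1 or 3, or fasted TOR 1 or 2 (-2.68 to -2.22). col-8 lost it without fed control 1 or 2, fed Rheb 1, 2 or 3, fasted Rheb 1, 2 or 3, fed TOR 2, or fasted TOR 1 or 3 (1.9 to 2.51). The rest lost it without most arrays and kept it without few. R02E4.1 (1.02 to 1.31 where lost) kept it without fed Rheb 3, fasted Rheb 4 or fed TOR 3, and vglu-3 (1.86 to 2.22) without fed control 4, fasted control 2, fed Rheb 2, fasted Rheb 4 or fed TOR 1. col-19 (1.66 to 1.99) kept it without fed control 4, fed Rheb 3 or 4, fasted Rheb 4, fed TOR 3 or fasted TOR 2, and lys-7 (2.07 to 2.32) without fed control 4, fasted control 2 or 3, fasted Rheb 1, 3 or 4, or fasted TOR 2. F01D5.3 (-2.29 to -2.06) kept it without fed control 4 or 5, fasted control 1, 3, 4 or 5, or fed Rheb 4, and spp-24 (0.98 to 1.12) without fed control 1 or 4, fasted control 2 or 5, fed Rheb 2, fasted Rheb 4 or fed TOR 3. fcmt-1 (1.34 to 1.66) kept it without fed control 1 or 4, fasted control 3 or 5, fed Rheb 1 or 3, fasted Rheb 1 or fed TOR 1. pho-1 (-1.74 to -1.59) kept it without fed control 1, 3, 4 or 5, fasted control 1, 2 or 3, fed Rheb 2 or fasted Rheb 4, and cpt-5 (1.43 to 1.76) without fed control 2 or 4, fasted control 2 to 5, fed Rheb 1, fasted Rheb 1 or 4, or fed TOR 3. Centring the arrays moved the median of all genes to -0.03 and gave 40 calls, and quantile normalization also gave 40, with 37 of the 39 kept in each. In simulated data 1.5-fold differences were recovered in 0% of genes.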

Other observations

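Several genes called only with the within-plate block lie beside others with the same direction in the WBcel235 annotation. They were chosen after their values were seen. How often called genes lie this close by chance was not tested, and 137 of the 178 genes called with the block were higher. Further such pairs, also higher, were ZK1320.2 with cyp-13A10, twk-5 with ttr-18, and C53B4.3 with col-119. delm-2, which like acd-1 belongs to the degenerin and epithelial sodium channel family, is next to acd-1 and differed by 1.34 ± 0.3 (SE; limma adjusted p = 0.011 with the block, 0.062 without), against 1.8 for acd-1. drd-50, F49F1.5 and F49F1.7, which lie within 3 places, differed by -2.46, -1.8 and -2.51, and all of them were higher in fed TOR than in fed Rheb RNAi worms. F01D5.5, next to F01D5.3, differed by -1.55. fipr-21 and cnc-8, a caenacin of the family of antimicrobial peptides, are neighbours and differed by 1.35 and 1.33. The lectins clec-174, clec-42 and clec-232 differed by -2.98, -1.63 and -1.33, while clec-60 differed by 2.65, with a fall of -5.09 under Rheb RNAi and -2.44 under TOR RNAi.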
